A study of Mus musculus with 16 samples.

Results

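Glutamate that neurons release is cleared by sodium-dependent carriers of the Slc1 family and, in astrocytes, turned into glutamine by glutamine synthetase, the product of Glul. The 5 genes described here are Slc1a3 (GLAST) and Slc1a2 (EAAT2), the carriers of glial glutamate uptake, Slc1a1 (EAAC1), the carrier of neuronal cell bodies and dendrites, Slc1a4 (ASCT1), a neutral amino acid exchanger for serine and alanine, and Glul. They were taken by name from the 19999 genes of the count table, and all 5 were present. Glutamine made in astrocytes returns to neurons and is turned back into glutamate there, and this exchange is known as the glutamate-glutamine cycle. Astrocytes are the textbook site of Slc1a2, Slc1a3 and Glul expression in the cortex, while microglia, the resident macrophages of brain, are known to take up glutamate in some states.

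Nuclei of the medial prefrontal cortex of 16 male mice aged 22 weeks were profiled by droplet-based single-nucleus RNA sequencing, with 1 library per mouse and 4 mice in each of 4 groups. The 4 groups crossed genotype, WT or 3xTg-AD, with alcohol exposure or none. The labels give the WT strain as B6;129. The 3xTg-AD line carries, among its mutant alleles, human APP and human tau transgenes with disease mutations, expressed in neurons from Thy1 sequences. Alcohol was given as repeated cycles of chronic intermittent vapor, with air in the chambers of the unexposed mice, and per the study's methods exposed and unexposed mice both received pyrazole, an inhibitor of alcohol dehydrogenase. The study puts the 3xTg-AD mice on the same mixed background and refers to the WT controls as littermates, and any remaining difference in background between the genotypes was not tested. Mice are named by group and the number in their label.

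The table held 114512 nuclei, with 4955 to 9096 nuclei and 9622031 to 17544364 unique molecular identifiers (UMIs, each counting 1 captured transcript) per mouse. A nucleus was placed in a class when it held at least 4 distinct markers of that class and more than of any other, and none of the 5 genes was a marker. This gave 5966 astrocyte-like nuclei, 2557 oligodendrocyte-like, 1199 oligodendrocyte progenitor (OPC)-like, 1898 microglia-like (microglia and perivascular macrophages, microglia-PVM), 443 endothelial-like, 57824 glutamatergic-like and 4176 GABAergic-like nuclei, while 40183 (35.1%) stayed unnamed. A further 73 mural-like and 193 vascular leptomeningeal-like nuclei were named. Too few mice had at least 10 nuclei of these last classes, so they were left out of the levels and orders below. The classes are called by these names without the suffix from here on. Summed astrocyte markers reached 7637 UMIs per 1000000 UMIs (CPM) in astrocytes and 607 CPM in microglia. In 3 libraries, WT control 26 and 27 and 3xTg-AD 12, the ribosomal RNA-associated transcript Gm42418 took at least 17914 CPM, against at most 4249 CPM in the other 13. Of 112806 distinct barcodes, 1694 occurred in more than 1 library. Levels below are CPM of the UMIs summed over the nuclei of a class in 1 mouse, given as mean ± SD over mice, so n is always a number of mice.

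Slc1a3 was the member that differed between genotypes, and it did so in microglia. Slc1a3 (ENSMUSG00000005360) lies on the minus strand at chr15:8634124-8710764 in GRCm38. The window from 250 bases before to 50 bases after its RefSeq start (GRCm38.p6, chr15:8710758-8711057, minus strand) is shown because this is the gene whose level differed most. It is written 5′ to 3′ with CpG dinucleotides in capitals.
Slc1a3: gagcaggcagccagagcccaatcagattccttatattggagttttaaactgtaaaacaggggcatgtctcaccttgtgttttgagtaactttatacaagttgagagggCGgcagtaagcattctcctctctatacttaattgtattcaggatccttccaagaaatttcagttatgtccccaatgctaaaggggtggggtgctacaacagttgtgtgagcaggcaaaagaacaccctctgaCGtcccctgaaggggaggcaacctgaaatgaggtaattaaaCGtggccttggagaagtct
It held 3 CpG at 45.3% GC, against a median of 7 CpG and 52.7% GC over 32851 RefSeq promoter windows of the same length. The cAMP response half-site, searched as TGACGT on both strands, occurred in it, as in 7.51% of all windows. The PU.1-type core of myeloid genes, searched as GAGGAAGT on both strands, did not occur in any of the 5 member windows and was found in 3.20% of all windows.

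In microglia of WT control mice, the Slc1a3 level was 936 CPM in mouse 26, 656 in mouse 27, 974 in mouse 28 and 1181 in mouse 36. In alcohol-exposed WT mice it was 1177 CPM in mouse 17, 1462 in mouse 18, 1525 in mouse 6 and 708 in mouse 7. In 3xTg-AD mice it was 119 CPM in mouse 12, 236 in mouse 13, 130.5 in mouse 14 and 198 in mouse 21. In alcohol-exposed 3xTg-AD mice it was 281 CPM in mouse 31, 234 in mouse 33, 215 in mouse 34 and 190.4 in mouse 4. The lowest WT mouse stood above the highest 3xTg-AD mouse, with or without alcohol, and the genotypes did not overlap. The 8 WT mice averaged 1077 ± 319 CPM and the 8 3xTg-AD mice 200.4 ± 54.5 CPM (SD, n = 8 each), a 5.38-fold difference of means.

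In the edgeR quasi-likelihood fit, alcohol-exposed 3xTg-AD mice differed from WT controls by -2.04 on the log2 scale (SE 0.21, adjusted p = 7.72e-11). Unexposed 3xTg-AD mice differed from WT controls by -2.54 (SE 0.25, adjusted p = 1.07e-11). Within the alcohol-exposed mice, 3xTg-AD against WT gave -2.39 (SE 0.20, adjusted p = 6.87e-15). Of the 2864 genes tested in microglia, 0.209%, 0.0349% and 0.175% were called lower in these 3 comparisons, which share samples with each other. All 25 alternative settings kept each of these calls, with log2 fold changes from -2.34 to -1.89, from -2.88 to -2.35 and from -2.73 to -2.28. Alcohol made no difference that passed the test within either genotype: the log2 fold change was 0.35 (SE 0.19, adjusted p = 0.691) in WT and 0.50 (SE 0.27, adjusted p = 0.796) in 3xTg-AD mice. The genotype by alcohol interaction was 0.15 (SE 0.33, adjusted p = 0.995).

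**Figure D1:**
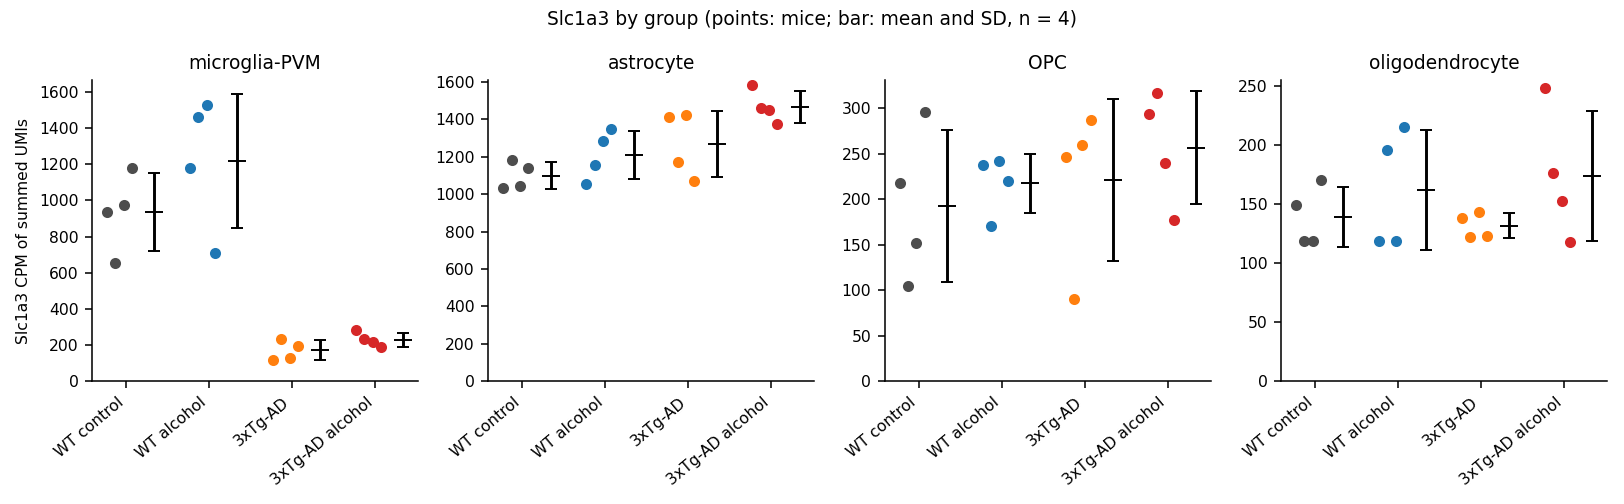
Slc1a3 level (CPM of summed UMIs, linear axes from 0) in microglia-PVM, astrocytes, OPCs and oligodendrocytes, with 1 point per mouse and the mean and SD of 4 mice per group. In microglia-PVM the 8 3xTg-AD mice sit between 119 and 281 CPM and the 8 WT mice between 656 and 1525 CPM, while the genotypes overlap in the other 3 classes.

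Single microglial nuclei showed the same split. Of the 789 microglial nuclei of WT mice, 329 held no Slc1a3 UMI, 232 held 1, 123 held 2 and 105 held 3 or more, up to 9. Of the 1109 microglial nuclei of 3xTg-AD mice, 930 held none, 150 held 1, 24 held 2 and 5 held 3 or more, up to 4. The share of microglia with a Slc1a3 UMI was 55.6% ± 8.7 over the 8 WT mice and 14.97% ± 4.6 over the 8 3xTg-AD mice, at median depths of 797 and 822 UMIs. Oligodendrocytes, set beside them, gave 12.1% and 13.5% at 909 and 878 UMIs. After each nucleus was thinned to 600 UMIs, with 9 WT and 7 3xTg-AD microglial nuclei left out as shallower, the microglial share was 44.6% ± 10.5 in WT and 10.8% ± 3.9 in 3xTg-AD mice. The thinned share in oligodendrocytes was 8.03% ± 2.16 in WT and 8.51% ± 3.16 in 3xTg-AD mice. The 3xTg-AD microglial share thus lay close to that of oligodendrocytes, and the WT share lay well above it. Oligodendrocytes were not the class with the least Slc1a3. In summed UMIs, 3xTg-AD microglia held 200.4 CPM against 53.1 CPM in 3xTg-AD glutamatergic neurons. The within-mouse log2 difference was 1.90 ± 0.40.

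Astrocyte transcripts in the microglial nuclei did not differ in the same way. All 15 astrocyte markers had a UMI in the microglia of both genotypes, and their summed level was 606 ± 106 CPM (453 to 817) in the 8 WT and 572 ± 172 CPM (333 to 918) in the 8 3xTg-AD mice. The 19 microglial markers summed to 7636 ± 660 CPM in WT and 7887 ± 783 CPM in 3xTg-AD mice. The naming rule counts both sets of markers, so these sums are bound in part by that rule. In microglial nuclei without any astrocyte marker, Slc1a3 was 1137 ± 354 CPM (660 to 1623) in WT and 167 ± 48.8 CPM (111 to 245) in 3xTg-AD mice, a 6.81-fold difference. The number of microglial nuclei per mouse ran from 37 to 171 in WT and from 67 to 223 in 3xTg-AD mice. Microglia made up 1.18% ± 0.52 of nuclei in WT controls, 1.56% ± 0.65 in alcohol-exposed WT mice, 1.34% ± 0.34 in 3xTg-AD mice and 2.63% ± 0.98 in alcohol-exposed 3xTg-AD mice. The part of these shares in the Slc1a3 difference was not tested.

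The genotype difference was larger in microglia than in each other class. For each mouse, the log2 Slc1a3 level of microglia minus that of another class was compared between the 8 3xTg-AD and 8 WT mice by an exact permutation test, two-sided, with p adjusted over 18 such tests. Against astrocytes, this within-mouse difference was -0.15 ± 0.48 in WT and -2.81 ± 0.46 in 3xTg-AD mice, a shift of -2.65 (exact permutation p = 0.0001554, the smallest these groups allow, adjusted p = 0.000559). The shift was -2.43 against oligodendrocytes, -2.61 against OPCs, -2.44 against glutamatergic and -2.64 against GABAergic neurons, each with that same p. Against endothelial nuclei it was -1.56 (exact permutation, adjusted p = 0.0284), with overlap between the genotypes. With 4 against 4 mice, without and with alcohol separately, the test gave its smallest possible exact p of 0.0286 for each class, except for endothelial nuclei with alcohol (exact p = 0.114).

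In the other classes the genotypes overlapped. Slc1a3 was 205 ± 59.95 CPM in WT and 239 ± 73.5 CPM in 3xTg-AD OPCs, and 151 ± 38.9 and 153 ± 42.9 CPM in oligodendrocytes. It was 174 ± 47.4 CPM in WT and 122 ± 85.7 CPM in 3xTg-AD endothelial nuclei. Glutamatergic neurons held 51.0 ± 9.9 CPM in WT and 53.1 ± 17.2 CPM in 3xTg-AD mice. None of these differences passed the test in any comparison of groups. Over all 16 mice, the order of Slc1a3 levels was therefore led by astrocytes at 1261 ± 176 CPM (1032 to 1580), followed by microglia at 639 ± 504 CPM (119 to 1525). Astrocytes exceeded microglia in 12 of 16 mice (paired sign-flip exact permutation, adjusted p = 0.0109 over 70 neighbour pairs) and microglia exceeded OPCs at 222 ± 67.1 CPM in 10 of 16 mice (exact permutation, adjusted p = 0.0447). That second order was found in 8 of 8 WT mice and in 2 of 8 3xTg-AD mice, whose mean was higher in OPCs. The 4 mice in which microglia were at or above astrocytes were all WT, 3 of them exposed to alcohol. OPCs exceeded oligodendrocytes (152 ± 39.6 CPM, exact permutation, adjusted p = 0.0109), and endothelial nuclei (148 ± 71.9 CPM) exceeded glutamatergic neurons (52.1 ± 13.6 CPM, exact permutation, adjusted p = 0.00831). Oligodendrocytes and endothelial nuclei, and glutamatergic and GABAergic neurons (43.1 ± 17.5 CPM), did not pass the test. With counts per 10000 UMIs averaged over nuclei, glutamatergic neurons did exceed GABAergic neurons (exact permutation, adjusted p = 0.0015, against 0.124), but microglia over OPCs (0.0558) and endothelial nuclei over glutamatergic neurons (0.0908) no longer passed. OPCs over oligodendrocytes did not pass with a stricter marker rule (exact permutation, adjusted p = 0.141).

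Slc1a2 did not follow Slc1a3 in microglia. Slc1a2 was 1064 ± 411 CPM (650 to 1750) in WT and 831 ± 194 CPM (451 to 1116) in 3xTg-AD microglia, and the log2 fold change of 3xTg-AD mice against WT controls was -0.43 (SE 0.28, adjusted p = 0.945). For every 100 Slc1a2 UMIs, WT microglia held 116 ± 57.8 Slc1a3 UMIs and 3xTg-AD microglia 24.1 ± 2.9. Astrocytes held 20.8 ± 3.4 in WT and 23.6 ± 2.8 in 3xTg-AD mice, and oligodendrocytes 18.6 ± 7.1 and 21.4 ± 4.0. The ratio in 3xTg-AD microglia thus lay in the range of the astrocytes (16.4 to 28.6 over 16 mice), and that in WT microglia (40.4 to 225) lay above it in all 8 mice. Glul, the third astrocyte gene, was 257 ± 64.3 CPM in WT and 267 ± 52.7 CPM in 3xTg-AD microglia.

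**Figure D2:**
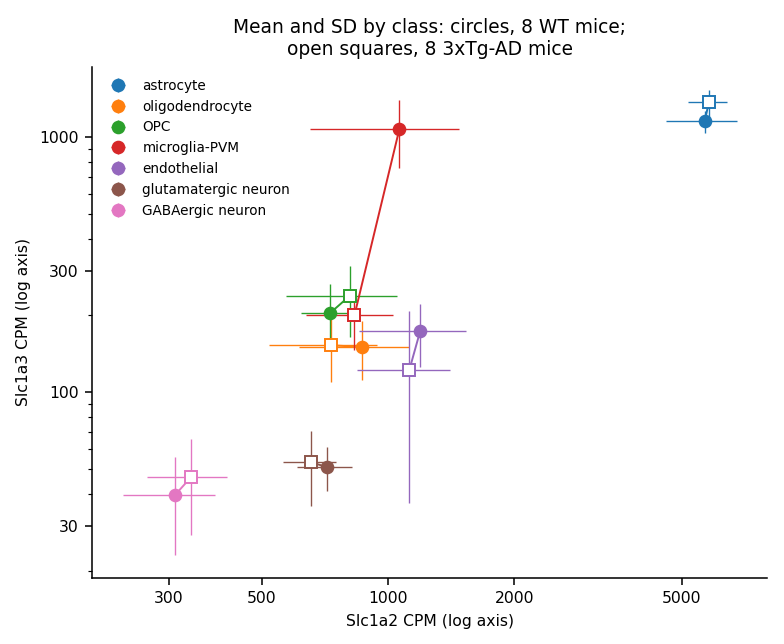
Mean Slc1a3 against mean Slc1a2 level (CPM, both axes logarithmic) for 7 classes, with SD bars, circles for the 8 WT and open squares for the 8 3xTg-AD mice. Microglia drop from 1077 to 200.4 CPM on the Slc1a3 axis between genotypes, and the other classes stay near their WT position.

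In astrocytes Slc1a3 had its highest level in alcohol-exposed 3xTg-AD mice, without passing the test. WT controls held 1032 CPM in mouse 26, 1183 in mouse 27, 1042 in mouse 28 and 1140 in mouse 36. The alcohol-exposed 3xTg-AD mice held 1580 CPM in mouse 31, 1461 in mouse 33, 1450 in mouse 34 and 1374 in mouse 4. These groups did not overlap. The means of the alcohol-exposed WT mice (1209 ± 130 CPM) and the 3xTg-AD mice (1268 ± 175 CPM) lay between theirs. Single mice were not separated in this way: the lowest unexposed 3xTg-AD mouse, at 1069 CPM, lay within the range of the WT controls. Alcohol-exposed 3xTg-AD mice differed from WT controls by 0.40 on the log2 scale (edgeR, SE 0.16, adjusted p = 0.247). Of the genes tested in astrocytes, 0.423% were called higher. Summed over all nuclei, Slc1a3 averaged 121 ± 13.5 CPM among WT controls and 173 ± 35.3 CPM in alcohol-exposed 3xTg-AD mice, a log2 fold change of 0.48 (adjusted p = 0.0597). Astrocytes were 4.56% ± 0.72 of nuclei in WT controls and 6.90% ± 1.08 in alcohol-exposed 3xTg-AD mice. In sums over all nuclei, more nuclei of a class and more transcripts per nucleus cannot be told apart.

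Slc1a2, the main carrier of glutamate clearance in forebrain, was the most abundant member in UMIs and was led by astrocytes. Slc1a2 (ENSMUSG00000005089) lies on the plus strand at chr2:102658659-102790784, and the antisense gene Gm13872 inside it stood at 1.8 to 3.1 CPM in the group means of all nuclei. Its RefSeq window (GRCm38.p6, chr2:102706188-102706487, plus strand) lies inside the annotated gene, at a start downstream of its first base. It is shown beside the window of Slc1a1 because these windows differ strongly in CpG content. Their positions are unlike, since the Slc1a1 window covers the annotated start of its gene. A window at the first base of Slc1a2 was not examined. CpG dinucleotides are again in capitals, 5′ to 3′.
Slc1a2: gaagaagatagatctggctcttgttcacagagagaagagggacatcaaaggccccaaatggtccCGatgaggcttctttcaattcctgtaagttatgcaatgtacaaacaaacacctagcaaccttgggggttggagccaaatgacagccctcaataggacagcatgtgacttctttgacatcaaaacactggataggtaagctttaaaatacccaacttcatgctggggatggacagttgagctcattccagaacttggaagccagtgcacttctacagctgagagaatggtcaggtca
Slc1a1: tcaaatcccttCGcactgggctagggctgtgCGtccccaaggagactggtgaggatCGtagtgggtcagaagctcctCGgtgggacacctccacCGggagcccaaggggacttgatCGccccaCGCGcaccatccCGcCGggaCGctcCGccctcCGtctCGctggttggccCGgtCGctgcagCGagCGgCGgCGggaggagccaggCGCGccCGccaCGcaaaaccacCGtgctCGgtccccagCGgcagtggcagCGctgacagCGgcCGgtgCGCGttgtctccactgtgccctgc
The Slc1a2 window held 1 CpG at 45.7% GC. The Slc1a1 window (chr19:28834885-28835184, plus strand) held 32 CpG at 70.3% GC, more CpG than 90.5% of all windows.

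The table held 221009 Slc1a2 UMIs, of which astrocytes, with 4.16% of all UMIs, carried 23.5%. Glutamatergic neurons, with 66.2% of all UMIs, carried 44.6%, and unnamed nuclei, with 21.96%, carried 27.8%. The astrocyte level was 5743 ± 856 CPM (4294 to 7102, n = 16), 4.96-fold the mean of endothelial nuclei at 1158 ± 302 CPM and higher in 16 of 16 mice (exact permutation, adjusted p = 0.000427). Microglia at 948 ± 333 CPM exceeded oligodendrocytes at 799 ± 235 CPM (exact permutation, adjusted p = 0.0136), a call lost under both alternatives given next (adjusted p = 0.394 with the stricter rule, 0.0558 with counts per 10000 UMIs), while endothelial nuclei and microglia, oligodendrocytes and OPCs (769 ± 184 CPM), and OPCs and glutamatergic neurons did not pass the test. Endothelial nuclei passed over microglia with counts per 10000 UMIs averaged over nuclei (exact permutation, adjusted p = 0.0498). The difference of OPCs from glutamatergic neurons was 0.15 on the log2 scale, and it was 0.38 with a stricter marker rule (exact permutation, adjusted p = 0.0254) and -0.21 with counts per 10000 UMIs (adjusted p = 0.0558). A Slc1a2 UMI was present in 98.2% of WT astrocytes and also in 46.0% ± 7.2 of WT microglia, so a low level of this abundant transcript was counted in every class.

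Among neurons, Slc1a2 was higher in glutamatergic than in GABAergic nuclei. Glutamatergic nuclei held 684 ± 101 CPM and GABAergic nuclei 325 ± 74.1 CPM, with the order kept in 16 of 16 mice (exact permutation, adjusted p = 0.000427). Near-projecting neurons of layers 5 and 6 (L5/6 NP) led with 1083 ± 266 CPM, followed by layer 6 corticothalamic neurons (L6 CT) with 851 ± 128 CPM (exact permutation, adjusted p = 0.00214) and layer 5 intratelencephalic neurons (L5 IT) with 621 ± 103 CPM (L6 CT higher in 16 of 16 mice, exact permutation, adjusted p = 0.000427). Parvalbumin interneurons (Pvalb) came last with 212 ± 75.2 CPM (n = 15). In nuclei without any astrocyte marker, the level was 553 ± 68.2 CPM in glutamatergic and 302 ± 60.7 CPM in GABAergic neurons, with 958 ± 269 CPM in L5/6 NP and 757 ± 98.8 CPM in L6 CT.

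No Slc1a2 difference between groups passed the test. Astrocytes held 5672 ± 631 CPM in WT controls, 5685 ± 1527 CPM in alcohol-exposed WT mice, 5559 ± 646 CPM in 3xTg-AD mice and 6055 ± 573 CPM in alcohol-exposed 3xTg-AD mice (SD, n = 4 each), and all 4 groups overlapped. In alcohol-exposed 3xTg-AD mice against WT controls, log2 fold changes over 16 classes and subclasses ran from -0.20 to 0.32, 9 of them positive and 7 negative, with a smallest adjusted p of 0.786. In the astrocytes, the fold change was 0.09 (SE 0.17, adjusted p = 0.902).

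**Figure D3:**
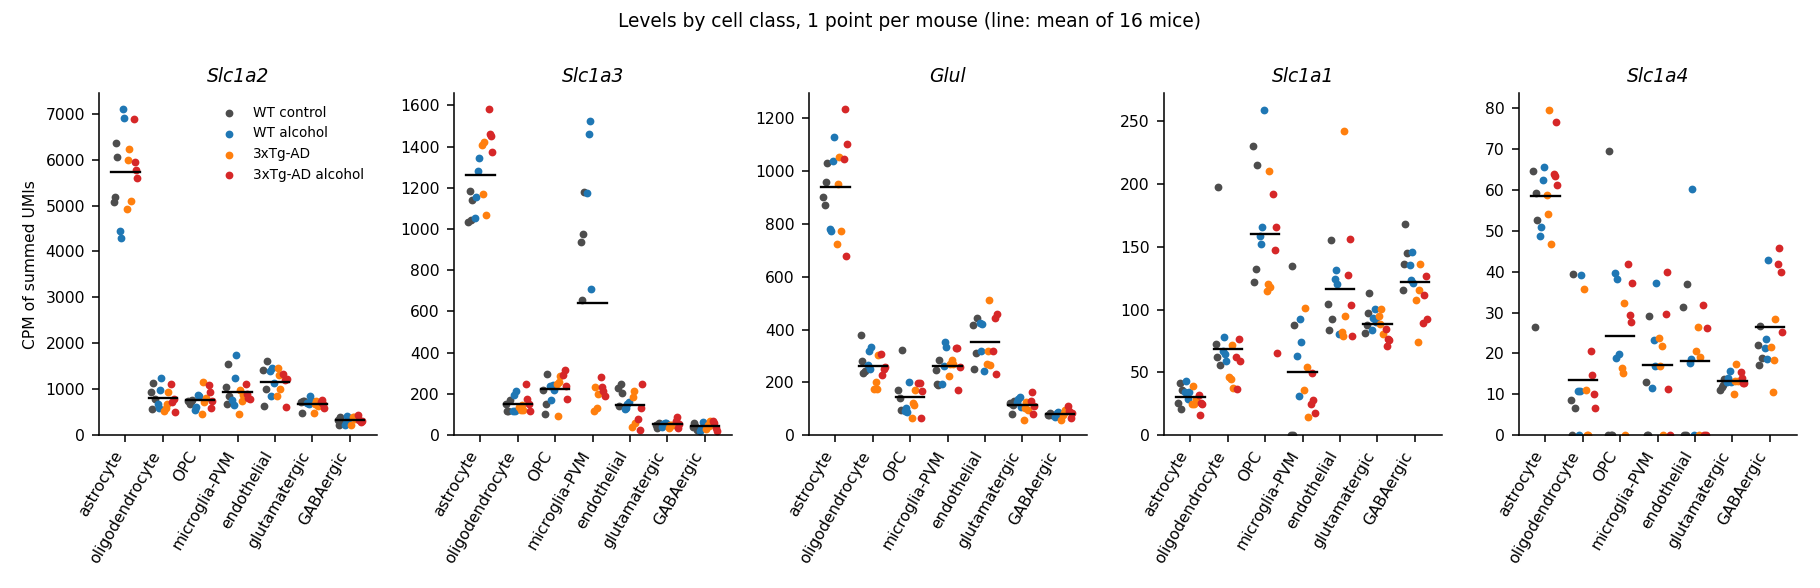
Level of each member (CPM of summed UMIs, linear axes from 0, a different scale per gene) in 7 classes, with 1 point per mouse coloured by group and a line at the mean of 16 mice. The astrocyte points of Slc1a2 and Glul lie above the points of all other classes, the mean of Slc1a1 is lowest in astrocytes, and the Slc1a3 points of microglia-PVM fall into a WT and a 3xTg-AD cluster.

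Glul, whose enzyme joins ammonia to glutamate, was also led by astrocytes. Glul (ENSMUSG00000026473) lies on the plus strand at chr1:153899944-153909723 and is overlapped on the other strand by Teddm2, which stood at 8.2 to 9.5 CPM in the group means of all nuclei. The astrocyte level was 941 ± 162 CPM (680 to 1236, n = 16), 2.66-fold that of endothelial nuclei (353 ± 91.1 CPM) and higher in 16 of 16 mice (exact permutation, adjusted p = 0.000427). Endothelial nuclei exceeded oligodendrocytes (262 ± 56.4 CPM, exact permutation, adjusted p = 0.0346, or 0.0624 with counts per 10000 UMIs averaged over nuclei), which matched microglia (262 ± 57.0 CPM) within their spread. Microglia exceeded OPCs (144 ± 66.5 CPM, exact permutation, adjusted p = 0.00061) and glutamatergic neurons (113 ± 26.6 CPM) exceeded GABAergic neurons (80.1 ± 12.7 CPM, exact permutation, adjusted p = 0.00061). The Glul level in oligodendrocytes was 235 ± 49.3 CPM in nuclei without an astrocyte marker.

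No Glul difference between groups passed the test. Astrocytes held 941 ± 70.3 CPM in WT controls, 931 ± 182 CPM in alcohol-exposed WT mice, 875 ± 154 CPM in 3xTg-AD mice and 1015 ± 237 CPM in alcohol-exposed 3xTg-AD mice. In 3xTg-AD mice against WT controls, 12 of 13 classes and subclasses had a negative log2 fold change, with a median of -0.28. In alcohol-exposed 3xTg-AD mice against 3xTg-AD mice, 13 of 13 were positive, with a median of 0.33. These 2 comparisons share the 3xTg-AD mice, the classes share libraries, and the smallest adjusted p values for Glul were 0.674 and 0.323. The directions were not particular to Glul. In the first comparison, 8 of 11 were negative for Slc1a3, 11 of 16 for Slc1a2, 8 of 11 for Slc1a1 and 2 of 6 for Slc1a4. In the second, 10 of 11 were positive for Slc1a3, 13 of 16 for Slc1a2, 3 of 11 for Slc1a1 and 4 of 6 for Slc1a4. No share of all genes by direction is given here.

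Over the 16 mice, the astrocyte levels of Slc1a2 and Glul varied together. Pearson's r of log2 CPM was 0.678 (permutation p = 0.00436, adjusted over 3 pairs 0.0131) and Spearman's rho 0.662 (permutation, adjusted p = 0.0193). Without the 2 mice farthest from the median Slc1a2 level, r was 0.609, and with each mouse centred on its group mean it was 0.664 (permutation, adjusted p = 0.0153). Without the 3 libraries rich in Gm42418, r was 0.644 (permutation, adjusted p = 0.0533) and rho 0.522 (permutation, adjusted p = 0.128), so neither passed. There r was 0.474 without the 2 farthest mice. The Slc1a2 and Glul levels both rose with the number of astrocyte markers that an astrocyte nucleus held. From 4 markers to 8 or more, Slc1a2 went from 4477 to 7703 CPM and Glul from 688 to 1455 CPM. Slc1a3 went from 1190 to 1354 CPM. The part of marker number in this correlation was not tested. Slc1a2 and Slc1a3 gave r = 0.457 (permutation, adjusted p = 0.113) and rho = 0.332 (adjusted p = 0.209), and r was 0.332 without the 2 farthest mice. Slc1a3 and Glul gave r = 0.297 (permutation, adjusted p = 0.261) and rho = 0.341 (adjusted p = 0.209), with r = 0.254 without the 2 farthest mice.

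Slc1a1 was the member with the reverse pattern over classes and the second one called between groups. Slc1a1 (ENSMUSG00000024935) lies on the plus strand at chr19:28835049-28913960, and the gene 4430402I18Rik overlaps it on the other strand. Whether the counting used strand is not given in the sources used here, so reads shared by these genes are uncertain. The Slc1a1 level was 161 ± 50.4 CPM in OPCs, 122 ± 23.9 in GABAergic neurons, 116 ± 42.4 in endothelial nuclei, 88.7 ± 11.02 in glutamatergic neurons, 68.2 ± 36.8 in oligodendrocytes, 50.6 ± 39.1 in microglia and 29.96 ± 7.58 in astrocytes. Endothelial nuclei exceeded glutamatergic neurons (exact permutation, adjusted p = 0.0439), which exceeded oligodendrocytes in 15 of 16 mice (exact permutation, adjusted p = 0.0161), and the other neighbours did not pass after adjustment. For OPCs over GABAergic neurons the adjusted p was 0.0519, and 0.045 with counts per 10000 UMIs averaged over nuclei (exact permutation), where endothelial nuclei no longer passed over glutamatergic neurons (adjusted p = 0.259). The microglial and endothelial levels rest on 83 and 93 UMIs in all. Among neurons, Lamp5 interneurons (146 ± 38.2 CPM), Pvalb interneurons (144 ± 55.8 CPM), layer 5 extratelencephalic neurons (L5 ET, 126 ± 19.8 CPM) and Sst interneurons (123 ± 37.2 CPM) stood highest, and none of these neighbours passed the test.

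Summed over all nuclei, Slc1a1 was lower in alcohol-exposed 3xTg-AD mice than in WT controls. WT controls held 80.3 CPM in mouse 26, 93.6 in mouse 27, 96.7 in mouse 28 and 108 in mouse 36. The alcohol-exposed 3xTg-AD mice held 82.4 CPM in mouse 31, 68.4 in mouse 33, 77.7 in mouse 34 and 72.9 in mouse 4. The groups overlapped through WT control 26, a library with high Gm42418, in CPM, and did not overlap after trimmed-mean (TMM) scaling, at 91.1 to 100.3 against 69.7 to 79.6. The log2 fold change was -0.35 (SE 0.09, adjusted p = 0.0332), where 2.5% of the 16767 genes tested were called lower. It was called in 13 of 22 alternatives and in 9 of the 16 that left out 1 mouse. Where the mouse left out belonged to either compared group, the call was kept only without WT control 26. Adjusted p values reached 0.120 in the edgeR fit with the ribosomal RNA-associated share as a covariate. Of the transcripts behind that share, Gm42418 was the most abundant. It took 2059 to 3232 CPM in alcohol-exposed 3xTg-AD mice and 3807 to 29047 CPM in WT controls, without overlap. It was called in 0 of its 17 tests, each with an edgeR unadjusted p under 0.05. AY036118 was lower in the same comparison (edgeR log2 fold change -0.84, adjusted p = 0.0182, in all nuclei). It was called lower in 12 of its 17 tests, those of all nuclei and of the single classes. The part of these transcripts in the Slc1a1 difference was not tested beyond that fit, which took them together. The means of the alcohol-exposed WT mice (90.7 ± 5.5 CPM) and the 3xTg-AD mice (86.7 ± 7.7 CPM) lay between those of WT controls and alcohol-exposed 3xTg-AD mice. Neither of these 2 groups gave a call against WT controls or against alcohol-exposed 3xTg-AD mice, and they were not tested against each other. The overlapping gene 4430402I18Rik held 173 ± 33.03 CPM in WT controls and 166 ± 17.98 CPM in alcohol-exposed 3xTg-AD mice.

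Within classes, the Slc1a1 log2 fold change of this comparison was negative in 11 of 11 classes and subclasses tested, with a median of -0.33, and none passed the test. The classes share libraries and the subclasses are parts of classes, so these are not separate observations. The log2 fold change was -0.30 in glutamatergic neurons (edgeR adjusted p = 0.0830) and -0.54 in L6 CT (SE 0.14, edgeR adjusted p = 0.0627). L6 CT neurons held 111 ± 21.7 CPM in WT controls and 76.9 ± 8.6 CPM in alcohol-exposed 3xTg-AD mice. In GABAergic neurons the level was 141 ± 22.0 and 105 ± 17.5 CPM (adjusted p = 0.180). With DESeq2 in place of edgeR, glutamatergic neurons (adjusted p = 0.0316) and L6 CT (adjusted p = 0.0477) were called.

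**Figure D4:**
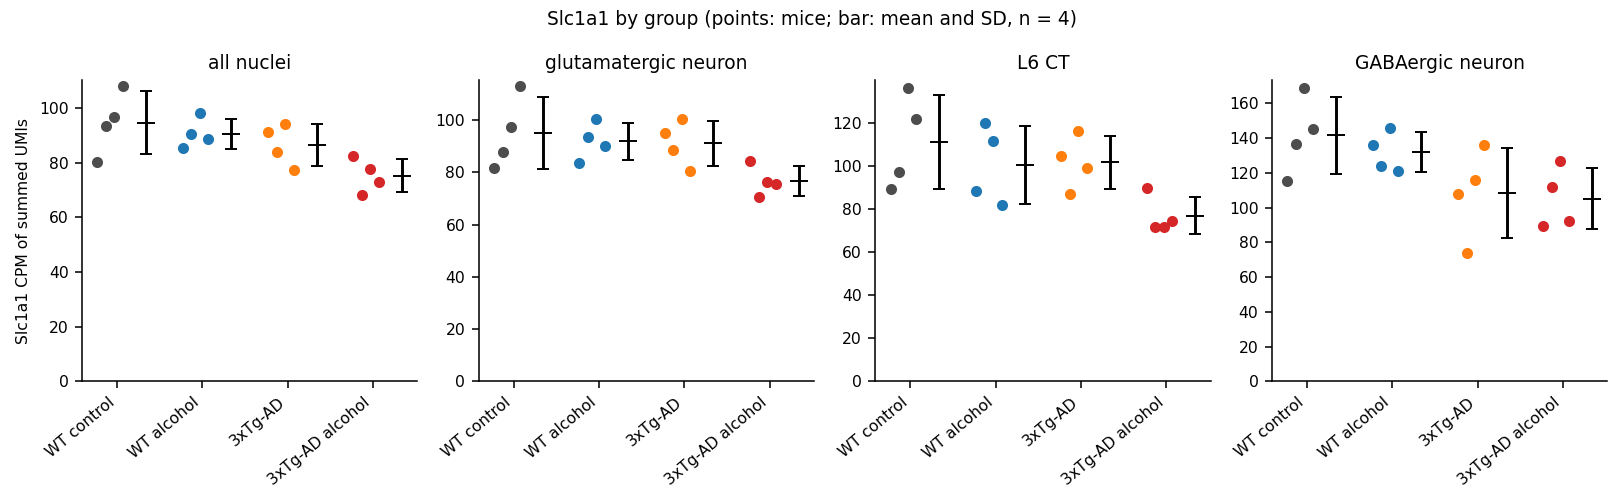
Slc1a1 level (CPM of summed UMIs, linear axes from 0) in all nuclei, glutamatergic neurons, L6 CT neurons and GABAergic neurons, with 1 point per mouse and the mean and SD of 4 mice per group. The alcohol-exposed 3xTg-AD mice have the lowest mean in each panel, 75.3 CPM in all nuclei against 94.7 CPM in WT controls, and their points overlap those of other groups.

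Slc1a4 was sparse, with 4004 UMIs in the table. Slc1a4 (ENSMUSG00000020142) lies on the minus strand at chr11:20302180-20332713, with no overlapping gene. Astrocytes held 58.5 ± 12.4 CPM (26.6 to 79.7), 2.21-fold the level of GABAergic neurons (26.4 ± 10.5 CPM) and higher in 16 of 16 mice (exact permutation, adjusted p = 0.000427). The other classes, from OPCs at 24.2 ± 19.3 CPM to glutamatergic neurons at 13.3 ± 1.8 CPM, followed in an order whose neighbours did not pass the test. It passed the filter on low counts in 6 of 16 classes and subclasses. In GABAergic neurons it averaged 21.2 ± 4.2 CPM among WT controls and 38.2 ± 9.0 CPM in alcohol-exposed 3xTg-AD mice, or 0.83 on the log2 scale (SE 0.28, adjusted p = 0.163).

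The 5 genes together gave 62 tests per comparison over 16 classes and subclasses and the sum of all nuclei. In alcohol-exposed 3xTg-AD mice against WT controls 2 were called, both lower, where 1.58% of all gene tests were called. Of the 62, 11 had an unadjusted p under 0.05. The shares of all tests in this paragraph refer to adjusted p, and none is given at the unadjusted threshold. In 3xTg-AD mice against WT controls 1 was called (5 unadjusted), with 0.221% of all tests called. In alcohol-exposed 3xTg-AD mice against alcohol-exposed WT mice 1 was called (10 unadjusted), with 0.523% of all tests called. The calls were Slc1a3 in microglia in each of these and Slc1a1 in all nuclei in the first. None was called by edgeR for alcohol in WT mice (1 unadjusted, 0 with DESeq2, 0.0317% of all tests), for alcohol in 3xTg-AD mice (11 unadjusted, 1 with DESeq2, 0.194% of all tests) or for the interaction (1 unadjusted, 0 with DESeq2, 0% of all tests).

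**Figure D5:**
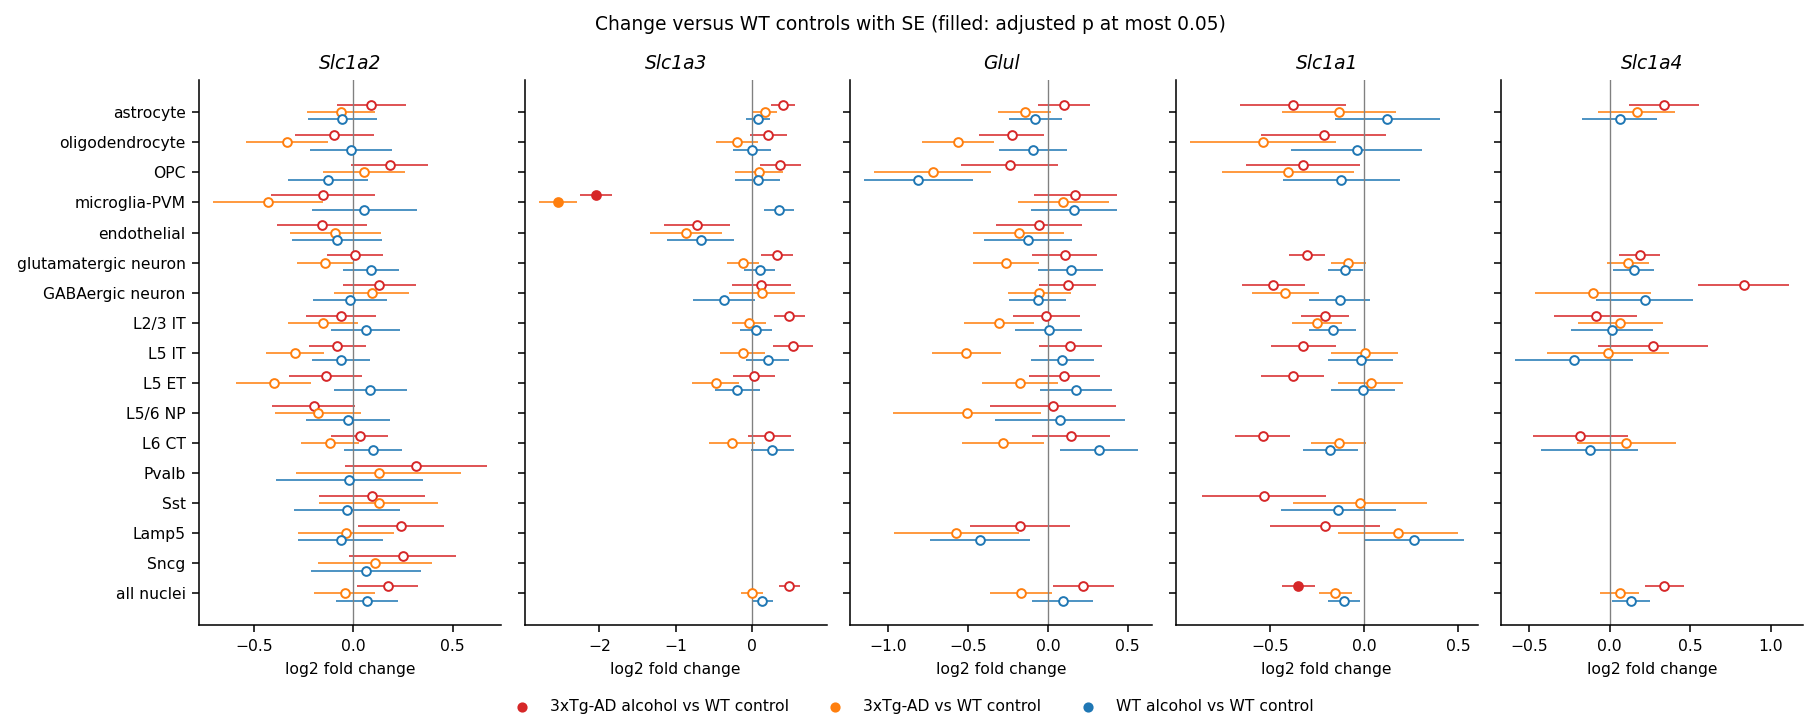
Log2 fold change against WT controls with SE for each member in each class or subclass in which it passed the filter on low counts, for 3 comparisons that share the WT controls. Filled points are the calls (adjusted p at most 0.05), which are Slc1a3 in microglia-PVM for both 3xTg-AD groups and Slc1a1 in all nuclei for alcohol-exposed 3xTg-AD mice.

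Other genes of the glutamate-glutamine cycle and of related amino acid transport gave calls in 1 comparison, at a share near that of all genes. Of 20 such genes, which gave 169 tests per comparison, 2 tests were called higher and 0 lower in alcohol-exposed 3xTg-AD mice against WT controls, where 1.58% of all tests were called in either direction. Of the 169 tests 17 had an unadjusted p under 0.05, a threshold at which no share of all tests is given here. None was called in the other comparisons by edgeR or DESeq2. Slc3a2, the heavy chain shared by several amino acid exchangers, rose in GABAergic neurons, with 96.4 ± 11.5 CPM among WT controls and 179 ± 36.7 CPM among alcohol-exposed 3xTg-AD mice. Its log2 fold change was 0.82 (SE 0.18, adjusted p = 0.00819), where 0.398% of the genes tested in that class were called higher. Slc7a5, a light chain that pairs with it to carry large neutral amino acids, rose in all nuclei, with 10.7 ± 3.7 and 19.5 ± 3.4 CPM in those groups. Its log2 fold change was 0.86 (SE 0.23, adjusted p = 0.0445), where 1.56% of genes were called higher. In astrocytes 13 of the 20 were tested and 0 called, with a median log2 fold change of 0.17 against -0.01 over all genes, and 3 had an unadjusted p under 0.05. Their levels over classes placed glutamate dehydrogenase (Glud1) in astrocytes at 393 CPM against 61.1 CPM in glutamatergic neurons. The glutamine exporter Slc38a3 stood at 168 CPM and the cystine-glutamate exchanger Slc7a11 at 399 CPM in astrocytes, against 4.6 and 10.1 CPM in glutamatergic neurons. Endothelial nuclei held 141 CPM of Slc38a3 and 92.1 CPM of Slc7a11. Slc7a5 was highest in endothelial nuclei, at 436 CPM against 15.6 CPM in astrocytes.

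A list of 20 other astrocyte genes gave 183 tests and 1 call in the same comparison, higher, beside 1.58% called over all tests. Of the 183 tests, 37 had an unadjusted p under 0.05. The 1.58% refers to adjusted p, and no share of all tests is given at the unadjusted threshold. Not every gene of this list was highest in astrocytes. Slco1c1 stood at 919 CPM in endothelial nuclei against 246 CPM in astrocytes, and Mertk at 378 CPM in microglia against 329 CPM. The call was Cst3, the secreted protease inhibitor cystatin C, in GABAergic neurons, at 355 ± 16.9 CPM in WT controls and 553 ± 131 CPM in alcohol-exposed 3xTg-AD mice (log2 fold change 0.58, SE 0.15, adjusted p = 0.0377). All 15 astrocyte markers had a UMI in the GABAergic nuclei of both groups, summing to 278 ± 28.4 and 306 ± 58.7 CPM, and their part in this difference was not tested. Over all mice, Cst3 was as high in microglia (2672 CPM) as in astrocytes (2632 CPM). Microglia were 1.18% of nuclei in WT controls and 2.63% in alcohol-exposed 3xTg-AD mice, and the part of their transcripts was not tested either. In astrocytes all 20 were tested with 0 calls and a median log2 fold change of 0.17.

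Over the 16 classes and subclasses, the genes closest to each member in level were compared by Pearson's r of log2(CPM + 1) among 7189 genes, as a description in which classes share libraries. Slc1a3 was closest to Mertk (r = 0.969), a receptor for the engulfment of dying cells, then Pdlim4 (0.965) and Cst3 (0.963). Over the 8 WT mice alone these values were 0.965, 0.918 and 0.971, and over the 8 3xTg-AD mice, whose microglial Slc1a3 was lower, they were 0.871, 0.859 and 0.902, at places 80, 102 and 49. Slc1a2 was closest to Fxyd1 (0.968), a regulator of the sodium pump, then Prodh (0.939), the first enzyme of proline breakdown, and Ezr (0.936). Glul was closest to the metallothioneins Mt2 (0.983) and Mt1 (0.974) and to Mfge8 (0.970). Slc1a1 was closest to the overlapping 4430402I18Rik (0.876), then Trmt1l (0.869) and Armcx1 (0.826), and Slc1a4 to Psd2 (0.915), Abat (0.871), which breaks down GABA, and Msi2 (0.855). The closest genes of the other members also changed with genotype in part, and the order given is that over all mice. Among the members, Glul had r = 0.890 with Slc1a2 and 0.912 with Slc1a3, and Slc1a1 had -0.746 with Slc1a2.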

How the data were processed

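Nuclei of 16 mice were profiled with the 10x Genomics 3′ kit. The authors aligned reads to mm10 with Cell Ranger 6.1.1, which uses STAR, and deposited raw UMI counts of 19999 genes per nucleus. All values were whole numbers. The filter behind the deposited nuclei is not given in the sources used here, and the table holds more nuclei than the study states after its own filter. No further filter on nuclei and no doublet caller were applied, and 5431 nuclei held at least 4 markers of more than 1 class. Barcodes shared between libraries were kept. Median depth was 1543 UMIs and 1019 genes per nucleus.

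The 5 genes and the gene lists were chosen with earlier results of these data known. Of 198 listed markers 196 were in the table. Nuclei were named by counting distinct markers (at least 4, glutamatergic neurons at least 2 more than any other class, subclasses at least 2 of their own), so class names can differ from the study's. Counts were summed per mouse and class where a mouse had at least 10 nuclei. Tests were run with edgeR 4.0.16 (R 4.3.3, limma 3.58.1), with TMM scaling, filterByExpr and a robust quasi-likelihood fit over all 16 mice, and Benjamini-Hochberg adjustment over all genes of a class and comparison. A call is an adjusted p of at most 0.05. DESeq2 1.42.0 was an alternative. Levels of neighbouring classes were compared over mice by sign-flip exact permutation tests, two-sided, adjusted over 70 pairs, and correlations by 100000 permutations (Python 3.11.15, scipy 1.17.1, numpy 2.4.6, pandas 2.3.3). Each library is 1 mouse, so the spread is between mice. UMI shares carry counting error besides.

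Named genes were the 5 members, the list genes called in a described comparison (at most 6 by adjusted p), and the 3 genes closest to each member over classes among those with at least 50 CPM in a class. Lists covered the glutamate-glutamine cycle, other astrocyte genes and ribosomal RNA-associated transcripts. A gene of the first list and an allele of the mouse line are not reported here. Alternatives were other size factors, no filter on low counts, DESeq2, fits on the compared groups alone, covariates, a stricter rule of 6 markers, nuclei without an astrocyte marker, counts per 10000 UMIs and leaving out each mouse. The fitting code was tested on simulated data. Coordinates are GRCm38 (GENCODE), promoter windows RefSeq GRCm38.p6, in which all 5 members matched.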

Additional observations from a re-analysis of the deposited data

Results flagged for a closer look

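The Slc1a3 difference between 3xTg-AD and WT mice was not the same in all classes. The log2 difference in microglia minus that in another class was -2.65 for astrocytes, -2.43 for oligodendrocytes, -2.61 for OPCs, -2.44 for glutamatergic neurons and -2.64 for GABAergic neurons (8 against 8 mice, exact permutation, adjusted p = 0.000559 for each). It was -1.56 for endothelial nuclei (exact permutation, adjusted p = 0.0284).

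Of 116 groups of 4 mice examined, 7 held a mouse far from the other 3, where about 1 in 20 groups would by chance. Slc1a1 was 198 CPM in the oligodendrocytes of WT control 28, against 55.6 to 72.4 CPM in the other 3 mice. In OPCs, Slc1a1 was 210.4 CPM in 3xTg-AD 14, against 115 to 121 CPM. In OPCs of WT alcohol 7, Slc1a1 was 259 CPM, against 152 to 165 CPM, and Glul was 199 CPM, against 89.1 to 104 CPM. Slc1a2 was 621 CPM in the endothelial nuclei of 3xTg-AD alcohol 34, against 1202 to 1322 CPM. In glutamatergic neurons, Slc1a2 was 479.9 CPM in WT control 27, against 731 to 749 CPM, and Slc1a3 was 33.5 CPM in 3xTg-AD 12, against 48.6 to 50.7 CPM. The last 2 mice are among the 3 libraries with the most Gm42418.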

How the results depend on the processing

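The 3 Slc1a3 calls in microglia held under all 25 alternatives each. The count of member tests called in alcohol-exposed 3xTg-AD mice against WT controls (2) was 5 with DESeq2, where Slc1a1 in glutamatergic and L6 CT neurons and Slc1a3 in all nuclei (adjusted p = 0.0210) were added. It was 1 with the 2 groups alone and with the ribosomal RNA-associated share as a covariate. It was also 1 with markers of another class as a covariate, an alternative chosen after seeing the data. That alternative was not fitted to all nuclei, so the Slc1a1 call was not retested there and the Slc1a3 call in microglia was kept. Leaving out 1 mouse gave 1 to 4, with 4 without 3xTg-AD 12 (Slc1a1 in L6 CT and Slc1a3 in all nuclei added) and 1 without 3xTg-AD alcohol 31, 33, 34 or 4, or WT control 27, 28 or 36. In alcohol-exposed 3xTg-AD mice against 3xTg-AD mice, DESeq2 called 1 (Slc1a3 in all nuclei, log2 fold change 0.49, adjusted p = 0.0394) where edgeR called 0. The Slc1a1 log2 fold change in all nuclei was -0.35 with the 2 groups alone (adjusted p = 0.0873), -0.30 with the ribosomal RNA-associated covariate (adjusted p = 0.120), and -0.37 to -0.31 without 1 mouse. Glul in astrocytes (0.10, not called) turned to -0.0047 without 3xTg-AD alcohol 33 and was 0.26 without 3xTg-AD alcohol 34. The correlation of Slc1a2 and Glul was 0.644 without the 3 libraries with the most Gm42418 and no longer passed (permutation, adjusted p = 0.0533). DESeq2 called 5, 1 and 1 of the other astrocyte genes in alcohol-exposed 3xTg-AD mice against WT controls, 3xTg-AD mice and alcohol-exposed WT mice. Of the called orders between neighbouring classes, Slc1a2 microglia over oligodendrocytes and Slc1a3 OPCs over oligodendrocytes no longer passed under the stricter marker rule, nor did the subclass orders Slc1a2 Sncg over Sst (adjusted p = 0.599) and Glul L5 IT over Sst (adjusted p = 0.193), while Slc1a2 OPCs over glutamatergic neurons now passed. With counts per 10000 UMIs averaged over nuclei, Slc1a1 endothelial over glutamatergic, Slc1a2 microglia over oligodendrocytes, Slc1a3 microglia over OPCs and endothelial over glutamatergic, and Glul endothelial over oligodendrocytes no longer passed, nor did Slc1a2 L2/3 IT over L5 ET (adjusted p = 0.198). Orders that passed only with these counts were Slc1a1 OPCs over GABAergic neurons, Slc1a2 endothelial over microglia and L5 ET over Lamp5, Slc1a3 glutamatergic over GABAergic neurons, and Glul L2/3 IT and L5 ET over Sncg and L5 ET over Lamp5. Glul OPCs over glutamatergic neurons, not called at 0.26 on the log2 scale, turned to -0.57 under the stricter rule and to -0.32 with these counts, also not called. The causes were not tested. No paired analysis was possible because the groups share no replicate numbers. Depth limits Slc1a4 in microglia, endothelial nuclei, OPCs and oligodendrocytes and Slc1a1 in microglia, where some mice held no UMI.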
